A study of Caenorhabditis elegans with 12 samples.

Results

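Worms of the wrn-1(gk99) strain were compared with worms of the wild type strain N2 when both were untreated and at the L4 larval stage. The members are the libraries of these strains grown without vitamin C, 3 for wrn-1(gk99) and 3 for N2, which are 6 of the 12 libraries of the series. The question was how the loss of the worm ortholog of the Werner syndrome helicase changes the transcriptome of a whole larva, here described by gene family and function.

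Both groups were bleached, hatched overnight and grown from L1 at 25°C on NGM plates without vitamin C. The other 6 libraries came from the same strains on 10 mM vitamin C. The mutant line carries a short deletion in wrn-1 that was described as stopping production of the protein, and it was out-crossed to N2, so it is 1 allele in 1 line. The mutant developed more slowly and its worms were collected once vulva and gonad showed the same stage as in N2, which means that strain and hours of growth cannot be told apart. Each library was made from whole worms, and fewer cells of a type and less RNA per cell cannot be told apart in such samples. The study calls the 3 libraries of a group biological replicates, and no label says whether they came from separate days. One treated library, labelled N2 vitC replicate 3, goes against its label in its values: in 12477 of the 14342 genes tested below it lay nearer to the wrn-1(gk99) vitC libraries than to the other N2 vitC libraries. It enters only the fits over 12 libraries and the treated values, which are given with and without it.

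The wrn-1 gene encodes a RecQ helicase, an enzyme that unwinds DNA structures at stalled forks, breaks and telomeres, and the worm protein lacks the exonuclease domain of human WRN. The L4 stage is the last larval stage, in which the vulva forms, the hermaphrodite gonad makes sperm, and the epidermis prepares the adult cuticle. The cuticle is rebuilt at every molt from collagens, cuticlins and secreted hedgehog-related proteins whose transcripts come and go in waves within each larval stage.

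Values are the deposited normalized counts, which are reads per gene divided by the size factor of the library, and they are listed in the order of replicates 1, 2 and 3. They are not divided by gene length, so levels are compared between strains and not between genes. The N2 libraries held 15952129 to 20591287 reads on genes and the wrn-1(gk99) libraries 19681435 to 34234211. Differences were tested with limma after 1 was added and the log2 taken, over the 14342 genes, of 45327 listed, with a mean of at least 10 in these libraries, with Benjamini-Hochberg adjustment over all of them. A gene was called when its adjusted p was under 0.01, the group means differed by a ratio of 2 or more in either direction, and the mean of a strain exceeded a minimum that the study also set. Log2 fold changes are wrn-1(gk99) minus N2 throughout.

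By these criteria 623 genes, 4.34% of those tested, were higher in wrn-1(gk99) and 957, 6.67%, were lower. Counts of called members in the lists below are to be read against these shares. Without the minimum mean 1095 (7.63%) were higher and 1507 (10.5%) lower. The libraries of the strains did not overlap in 5502 genes (38.4%) that were higher and 5400 (37.7%) that were lower. Whatever the size of the change, 4677 genes (32.6%) rose and 4563 (31.8%) fell with an adjusted p under 0.01, and below a gene is said to have risen or fallen only if it passed that test. Over all tested genes the log2 fold change had a median of 0.01. With all libraries scaled to equal totals that median was 0.17, 871 genes were higher and 719 lower, and the higher share of calls went from 39.4% to 54.8%. Log2 fold changes below are relative to the size factors, and with equal totals they read higher by about that shift.

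**Figure D1:**
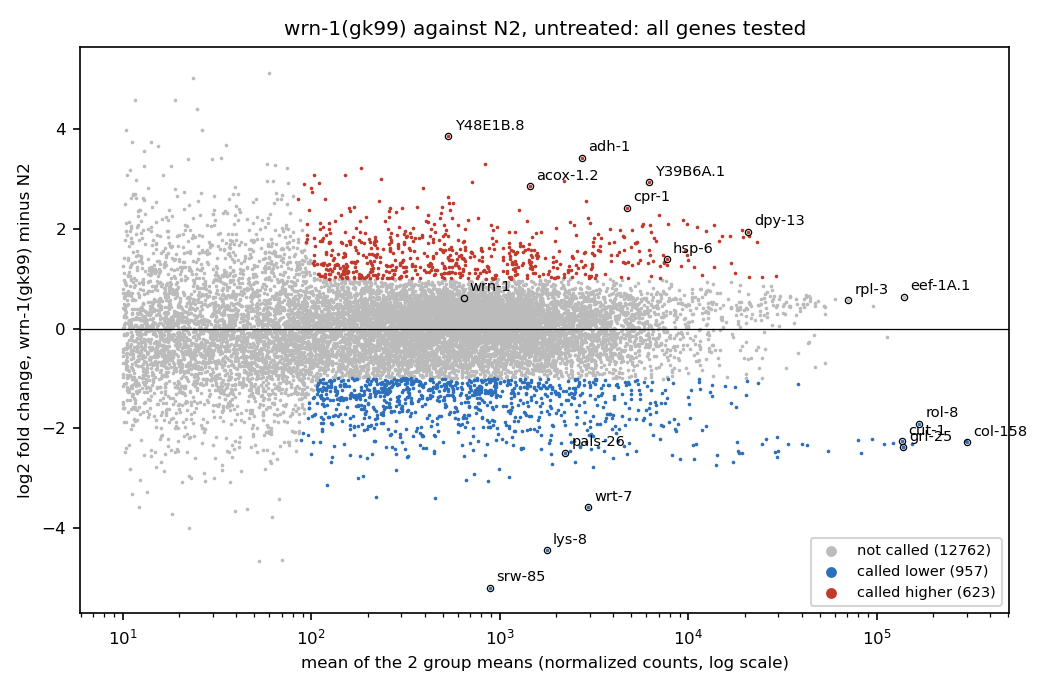
Log2 fold change (wrn-1(gk99) minus N2) of each of the 14342 genes tested against the mean of the group means in normalized counts on a log axis. The 623 genes called higher are red, the 957 called lower are blue, and the genes with the highest counts at the right include a band of cuticle genes near -2.3.

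The targeted gene, wrn-1 (F18C5.2, on chromosome II), had 516, 499 and 502 normalized counts in the N2 libraries and 854, 789 and 699.9 in the mutant libraries. All the mutant libraries lay above all the N2 libraries. The log2 fold change, 0.62 (SE 0.07 and adjusted p = 3.68e-06 in limma), was a rise that fell short of the ratio of 2. Counts cover the whole gene while the deletion removes a short stretch of it, so this value does not check the strain labels. In the order of the WBcel235 annotation the genes on either side were lron-15, at 0.20 (adjusted p = 0.210, limma), and F18C5.10, at -0.75 (adjusted p = 5.74e-09, limma).

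No partner of WRN-1 was called. Of 27 RecQ helicases, replication proteins and end-protection factors, all of them tested, none passed the ratio of 2. At any size 17 rose and 1 fell, with a median of 0.27. The other RecQ helicases him-6 (the Bloom syndrome ortholog) and rcq-5 had log2 fold changes of 0.39 and 0.27. The largest was that of chk-2, a meiotic checkpoint kinase, with 99.4, 109 and 85.3 normalized counts in N2 and 168, 179 and 183 in the mutant (log2 fold change 0.85, SE 0.12 and adjusted p = 2.27e-05 in limma), and it was called with equal totals. The end-joining ligase lig-4, at -0.18, was the member that fell.

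Genes of DNA metabolism rose by small amounts. No member of the DNA replication list (37 tested), of the repair and damage checkpoint list (48) or of the meiotic chromosome list (36) was called, apart from 1 meiotic gene with equal totals. Their medians were 0.46, 0.32 and 0.41. At any size 32 replication genes rose and 0 fell, against 29 and 5 of the repair genes. The replicative polymerase subunit pole-1 was at 0.71, the ribonucleotide reductase subunits rnr-1 and rnr-2 at 0.28 and 0.01 (adjusted p = 0.860 for rnr-2, limma), and the mismatch repair gene msh-6 at 0.53. The apoptosis genes egl-1 and ced-13, which worms turn on in the germline after DNA damage, were near the floor in both strains. egl-1 had 5.37, 10.6 and 12.8 normalized counts in N2 and 10.2, 4.05 and 10.9 in the mutant, ced-13 was at 0 in every library, and both fell under the level for testing (they were looked up after the other values were seen).

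Germline and oocyte genes rose. In the list of 41 tested genes 5 were called higher and 0 lower, and 39 had a log2 fold change above 0, with a median of 0.60. The number called was 11 with equal totals and 3 in a fit over all 12 libraries (5 in that fit without N2 vitC replicate 3). The P granule gene pgl-3 had 325, 369 and 346 normalized counts in N2 and 902, 893 and 996 in the mutant, a log2 fold change of 1.42 (SE 0.07 and adjusted p = 7.72e-10 in limma). The oocyte translation regulators puf-5 (1.12) and oma-1 (1.01) and the egg surface genes cbd-1 (1.12) and egg-1 (1.09) were the others called. The log2 fold change of egg-1 was 0.95 without N2 replicate 2 and that of oma-1 0.94, 0.98 and 0.98 without N2 replicate 1, N2 replicate 3 or wrn-1(gk99) replicate 1, where neither was called. The germline markers, 12 of 12 above 0, summed to 14332 to 14686 normalized counts in N2 and 21438 to 21876 in the mutant. Of these, 7 are members of the oocyte list and 5 of the meiotic list, and their part in the changes of the replication, repair, meiotic and oocyte lists was not tested.

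Transcripts of sperm, the adult collagen col-19 and yolk, which were used to check the labelled stage, were scarce in both strains. Of 116 listed sperm genes, 94 had a mean under 10, and the whole list summed to 2423 to 2620.4 normalized counts per N2 library and 2793 to 2883 per mutant library. Many sperm genes are near-identical copies whose reads the counting may have dropped. Of the 22 tested, 8 rose, 4 fell and none was called, with a median of 0.16 (-0.01 without N2 replicate 2). The values of spe-44, a regulator of spermatogenesis, were 55.1, 50.4 and 40.5 in N2 and 117, 121 and 130.2 in the mutant, and those of fer-1, a ferlin of sperm membranes, were 17.5, 25.2 and 19.2 and 76.2, 70.4 and 59.6. The sperm phosphatase gsp-4 went the other way, with 32.2, 62.3 and 78.9 and 21.4, 22.7 and 11.9. These were picked after their values were seen, and in each the strains did not overlap. The adult collagen col-19 had at most 2.69 normalized counts in any library. The yolk protein genes as a group summed to 63.7 to 76.8 in N2 and 38.9 to 43.7 in the mutant. By contrast the whole list of adult-onset genes summed to 3606 to 3853 in N2 and 11339.9 to 12215 in the mutant, most of it from the collagen rol-6. Of its 5 tested members rol-6 (1.81), cbd-1 and puf-5 were called higher, the yolk receptor rme-2 (0.73) rose and vit-1 (-0.69) fell. Its part in the other changes was not tested.

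Much of the RNA mass that differed belonged to the cuticle. In each N2 library the 20 genes with the highest counts took 16.7% to 17.3% of the total, and in each mutant library 7.60% to 8.12%. Most abundant here means highest in counts, which are not divided by gene length. Of the 20 most abundant in N2, 15 were called lower in wrn-1(gk99), with ratios of group means in a narrow band from 0.178 to 0.267. They comprised 9 collagens, 3 ground-like genes (grl-20, grl-23 and grl-25), the cuticlin cut-1, C13A2.12 and dyf-13. A ranking by N2 level favours genes that are higher in N2. Among the 20 most abundant in the mutant, 7 of them shared with N2, col-158, col-43, rol-8 and col-84 had such low ratios. The others had ratios from 0.893 (unc-54) to 1.76 (rrn-3.1). The span of dyf-13 holds the collagen gene col-36 on the same strand, which was listed at 0, so reads of these genes cannot be told apart.

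The gene with the highest mean count in N2, the cuticle collagen col-158, had 496546, 491889 and 509408 normalized counts in N2 and 101449, 100270 and 106688 in the mutant. No mutant library came near the N2 range, at a log2 fold change of -2.28 (SE 0.06 and adjusted p = 7.39e-12 in limma). The body-shape collagen rol-8 had 258186, 264838 and 274601 in N2 and 70615, 71034 and 71479.5 in the mutant (log2 fold change -1.90, SE 0.06 and adjusted p = 1.22e-11 in limma). The cuticlin cut-1, a component of the dauer alae, had 220217, 226882 and 232156 and 46929, 46747 and 48453 (log2 fold change -2.26, SE 0.05 and adjusted p = 1.58e-12 in limma). The span of col-158 overlaps nphp-4 on the opposite strand, which was at -0.44, and the strand setting of the counting is not given in the sources used here, so reads of this pair cannot be told apart. For each of these the spread within a strain was a small part of the gap between strains.

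**Figure D2:**
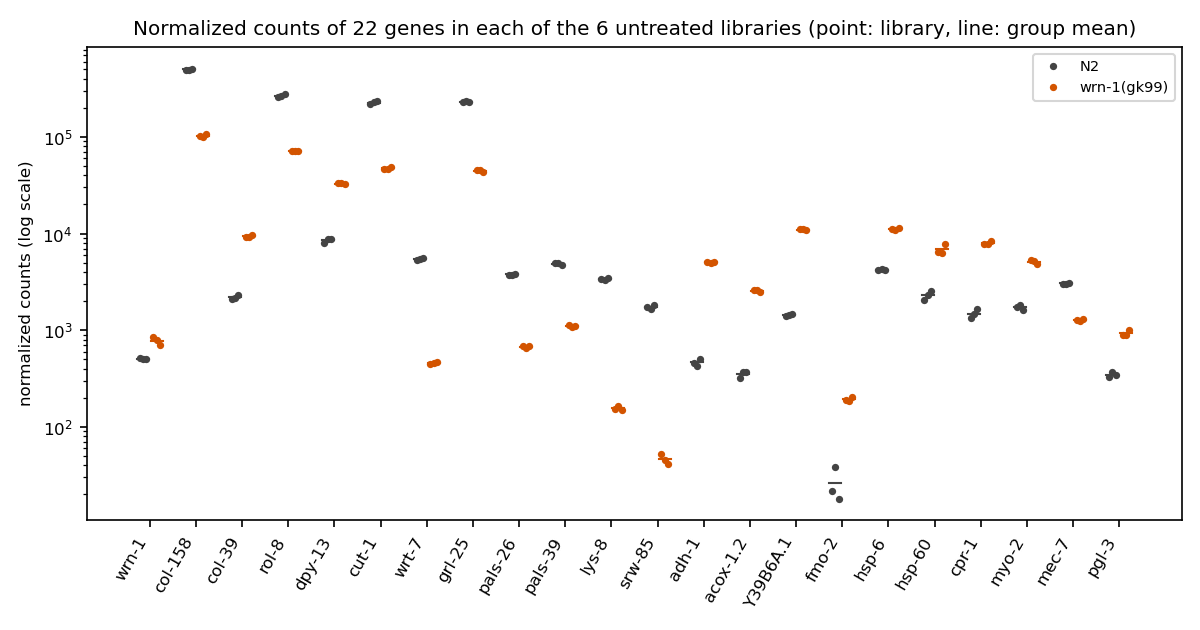
Normalized counts (log axis) of 22 genes in each of the 6 untreated libraries, with a point per library and a line at each group mean, N2 in dark grey and wrn-1(gk99) in orange. The strains do not overlap in any of the 22 genes.

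Collagens of the col family went both ways. Of 159 listed, 133 passed the level for testing, 47 were called higher, 42 lower and 44 neither, where over all genes 4.34% were called higher and 6.67% lower. The median over the family was -0.10, a value that describes neither side and that turned positive with equal totals (0.10), without N2 replicate 2 (0.0086) or at a mean of at least 50 (0.0061). The genes called lower had ratios of group means from 0.149 to 0.475 (median 0.205) and those called higher from 2.16 to 4.30 (median 3.25). All 29 members with an N2 mean above 10000 were called lower. Among the others 47 were called higher and 13 lower. When members were divided by the mean of both strains in place of N2 alone, 24 of the 29 above 10000 were lower and 5 higher (the limit was chosen after the values were seen).

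The largest falls in the family were those of col-183 (-2.74), col-123 (-2.67), col-72 (-2.62), col-89 (-2.61) and col-35 (-2.57), and the large rises included those of col-39 (2.11), col-65 (2.09), col-41 (2.04) and col-182 (2.02). On the rising side col-39 had 2085, 2132 and 2333 normalized counts in N2 and 9208, 9303 and 9658 in the mutant (SE 0.05 and adjusted p = 7.55e-13 in limma). On the falling side col-183 had 23399.7, 23908 and 25748 and 3627, 3621 and 3644 (SE 0.04 and adjusted p = 9.19e-14 in limma). As percentages of all normalized counts, the family took 12.5% to 13.3% in N2 and 4.45% to 4.49% in the mutant. Collagen genes resemble each other, and reads that the counting could not place in 1 gene would be missing from all of these values.

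The collagens named for body shape and blisters mostly rose. Of 13 tested, 7 were called higher and rol-8 alone lower, with a median of 1.35. The dumpy genes dpy-4, dpy-13 and dpy-5, whose loss gives short fat worms, were at 1.98, 1.95 and 1.84, and the roller gene rol-6 and its relative sqt-2 at 1.81 and 1.56. The dpy-13 values were 7982, 8869 and 8744 in N2 and 33244, 32974 and 32388 in the mutant (adjusted p = 1.51e-12, limma). The 6 collagens of the annular furrows, among them dpy-2, dpy-8 and dpy-10, all rose, with log2 fold changes between 0.66 and 0.78, and none was called. Of the enzymes that modify and cross-link cuticle proteins 2 of 14 were called, both lower, namely the dual oxidase bli-3 (-1.39) and tsp-15 (-1.84), a tetraspanin that the oxidase needs.

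**Figure D3:**
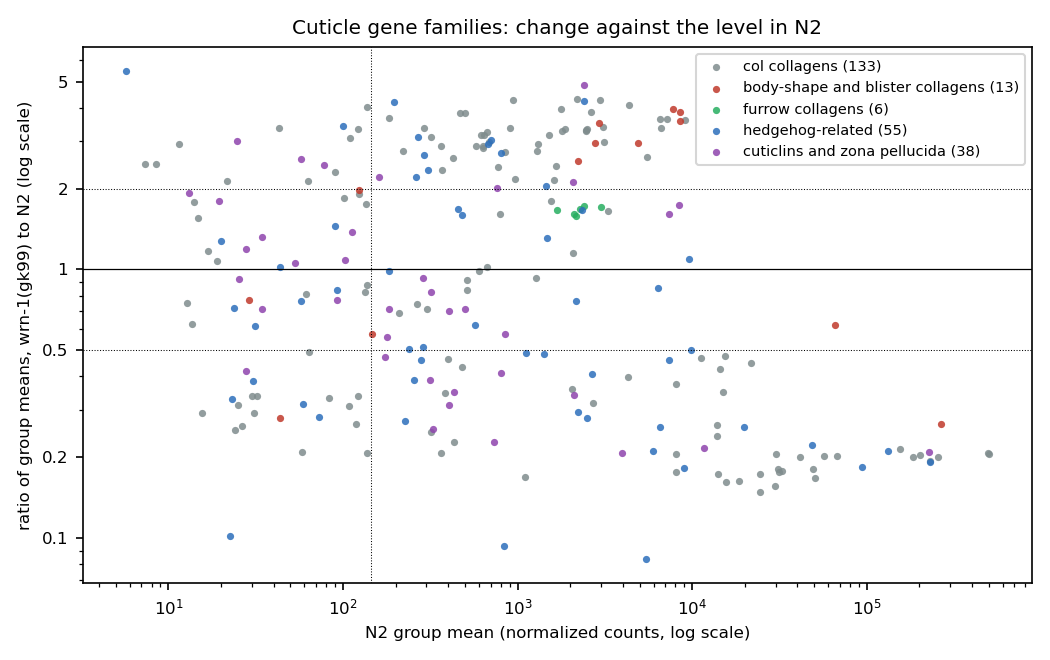
Ratio of group means (wrn-1(gk99) to N2, log axis) against the N2 group mean in normalized counts (log axis) for the tested members of 5 cuticle families. The 29 col collagens above 10000 in N2 all lie under the dotted line at 0.5, while most of those that rose lie between 100 and 10000.

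Hedgehog-related proteins, secreted proteins that many epidermal cells of the worm make, leaned lower. Of 61 listed, 55 were tested, 11 were called higher (20%) and 19 lower (34.5%), with a median of -0.69. Over all genes 4.34% were called higher and 6.67% lower. The warthog gene wrt-7 had 5384, 5444 and 5556 normalized counts in N2 and 447, 459.9 and 465 in the mutant, a log2 fold change of -3.58 (SE 0.04 and adjusted p = 1.67e-14 in limma). The groundhog genes grd-4 (-3.40) and grd-7 (-2.45) and the ground-like genes grl-20 (-2.44) and grl-25 (-2.38) also fell. The largest rises among called members were those of grl-16 (2.08), grd-6 (2.07), grd-2 (1.76), grl-21 (1.63) and grl-4 (1.60). Next to wrt-7 on chromosome V lies clec-228, another of the 15 largest falls (-3.05), whereas grd-4 on the X chromosome adjoins grd-14, which rose (1.54). Of the patched-related transporters, 1 of 28 was called higher (ptr-13, 1.78) and 3 lower (ptr-16, ptr-18 and ptr-20), which is 3.57% and 10.7%. The higher count was 2 without N2 replicate 1, N2 replicate 2 or wrn-1(gk99) replicate 3, and with equal totals the higher and lower counts were 3 and 1. The gene ptr-20 was not called without wrn-1(gk99) replicate 3, where its ratio lay just short of the limit.

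Cuticlins and other zona pellucida proteins had 6 members called higher (15.8%) and 11 lower (28.9%) of 38 tested, against 4.34% and 6.67% of all genes. Larval cuticlins that shape alae and body width, cut-5 (-2.27), cut-6 (-2.20) and cut-3 (-2.13), fell with cut-1, whereas cut-2, a cuticlin of another kind, rose by 2.28 (adjusted p = 2.49e-13, limma). Of the molting genes 6 were called higher (20%) and 5 lower (16.7%) of 30, and the lower count was 3 without N2 replicate 1 and 3 with equal totals. Rises came in mltn-1 (2.15), mlt-10 (1.53) and the nuclear receptor nhr-25 (1.32), which molting requires. Falls came in mltn-6 (-2.02), mltn-7 (-1.96), mltn-8 (-1.59), which adjoin each other on chromosome V, and the epidermal megalin lrp-1 (-1.05). The log2 fold change of lrp-1 was -0.94, -0.95 and -0.82 without N2 replicate 1, N2 replicate 2 or wrn-1(gk99) replicate 3, where it was not called. Its call was also lost with equal totals (-0.89), in the fit over all 12 libraries (adjusted p = 0.0597, limma, though not without N2 vitC replicate 3) and with limma's variance trend left out (adjusted p = 0.0121). The call of mltn-8 was lost without N2 replicate 1 (-1.54) and with equal totals (-1.42). Of the astacin metalloproteases, a family with members that digest the old cuticle, nas-3 (2.16) and nas-9 (1.76) rose while nas-27 (-2.18) and nas-28 (-1.78) fell. All 7 tested meprin-domain mam genes fell, with 5 called and a median of -1.27 (a family picked out after its values were seen).

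Regulators of developmental timing were called in both directions. Of 18 heterochronic genes, lin-46 (1.45) and mab-10 (1.26), which act late in the larval pathway, were called higher. The gene blmp-1, a zinc finger factor of epidermal timing, was called lower (but not with equal totals). These calls were 11.1% higher and 5.56% lower, against 4.34% and 6.67% of all genes, and at any size 7 rose and 6 fell. Of the steroid hormone genes daf-9, the cytochrome P450 that makes dafachronic acid, rose by 1.84, and dhs-16, a dehydrogenase of the same pathway, had 912, 923 and 939 normalized counts in N2 and 334, 317 and 337 in the mutant (-1.49). That list had 9 genes tested, with 11.1% called in each direction. Among vulva genes the epidermal growth factor lin-3 rose by 1.03 (0.98 and not called without N2 replicate 3). The fibroblast growth factor egl-17 (-1.42) and the metalloproteinase zmp-1 (-1.27), both made in vulval cells, fell, while the other 25 of 28 were not called. These calls were 3.57% higher and 7.14% lower, near the shares of all genes. In the insulin pathway the kinase pdk-1 (-1.09) alone of 16 genes was called (not with equal totals). That is 6.25% lower, near the 6.67% of all genes. The transcription factor daf-16 was at -0.64. No TGF-beta pathway gene of 17 was called, and the count lower was 1 without N2 replicate 2 or without wrn-1(gk99) replicate 3.

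**Figure D4:**
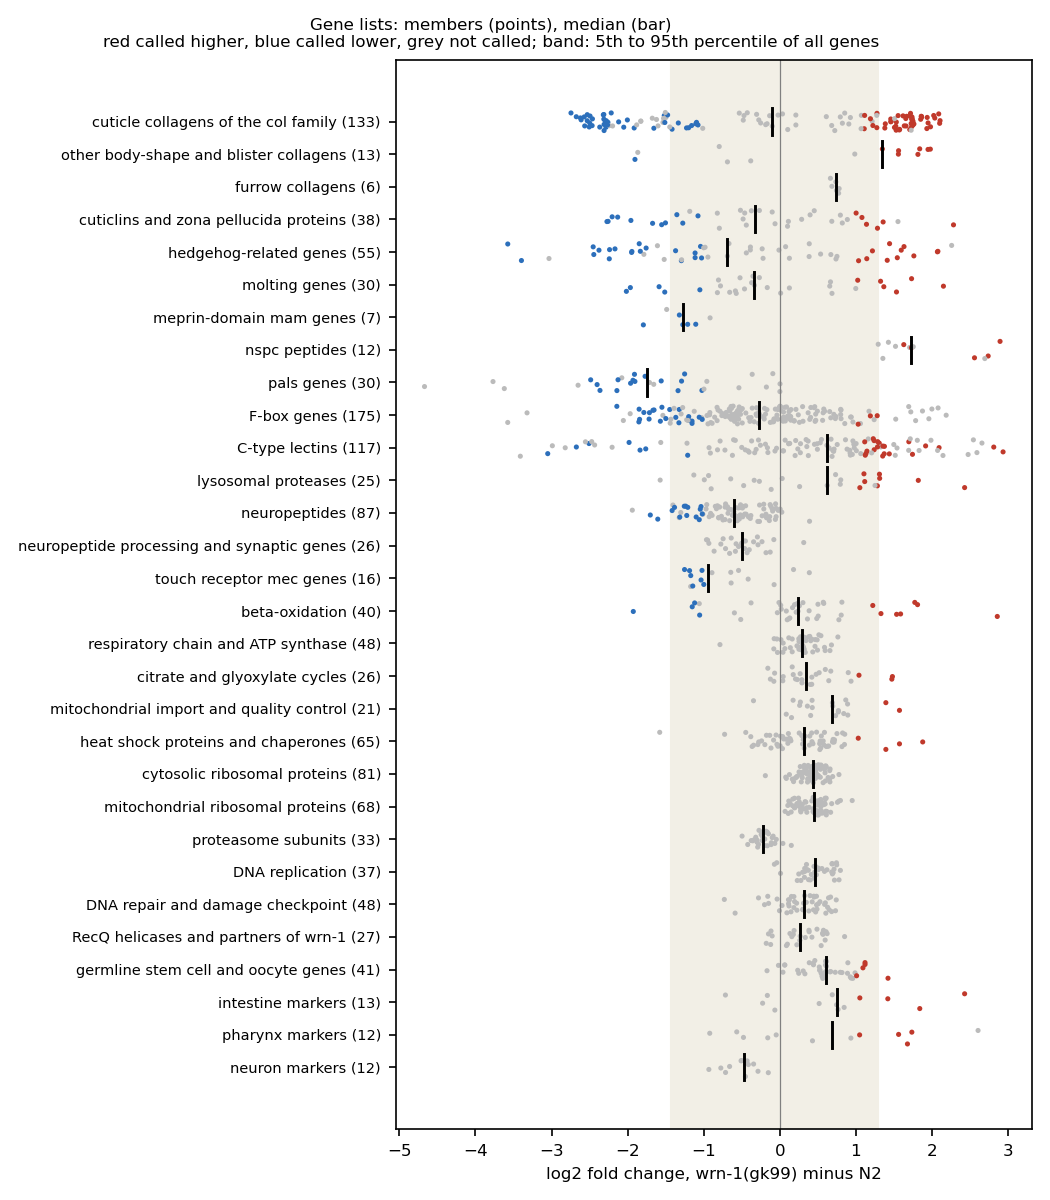
Log2 fold change (wrn-1(gk99) minus N2) of every tested member of 30 gene lists, with the number tested in parentheses and a black bar at the median. Collagens part into a lower and a higher cloud, ribosomal proteins cluster near 0.44, and most pals genes lie left of 0 with a median of -1.74.

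Protein synthesis genes rose together by a small amount. Of 81 cytosolic ribosomal protein genes 80 had a log2 fold change above 0, 73 rose at any size and 0 were called, with a median of 0.44, where 50.4% of all genes were above 0. All 68 mitochondrial ribosomal protein genes were above 0 (median 0.45), 56 of them rose, and none was called (1 without N2 replicate 3 or with equal totals). The large subunit gene rpl-3 had 54559, 55731 and 59766 normalized counts in N2 and 82059.5, 81239 and 88957 in the mutant (log2 fold change 0.57, SE 0.06 and adjusted p = 1.5e-06 in limma). The elongation factor eef-1A.1 had 105733, 111411 and 109158 and 169818, 166576 and 173586 (0.64, SE 0.06 and adjusted p = 4.39e-07 in limma). It had the highest mean count of any gene in the mutant. The groups did not overlap in either gene. Ribosomal proteins took 7.40% to 8.22% of all normalized counts in N2 and 11.6% to 12.5% in the mutant, shares of a total that includes the collagens.

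Proteasome genes were slightly lower. Of 33 subunit genes 2 were above 0, 23 fell at any size and none was called, with a median of -0.22 that was -0.05 with equal totals, where 10 subunits were above 0. The subunit pbs-5 was at -0.50 and the base subunit gene rpn-2 at -0.30.

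**Figure D5:**
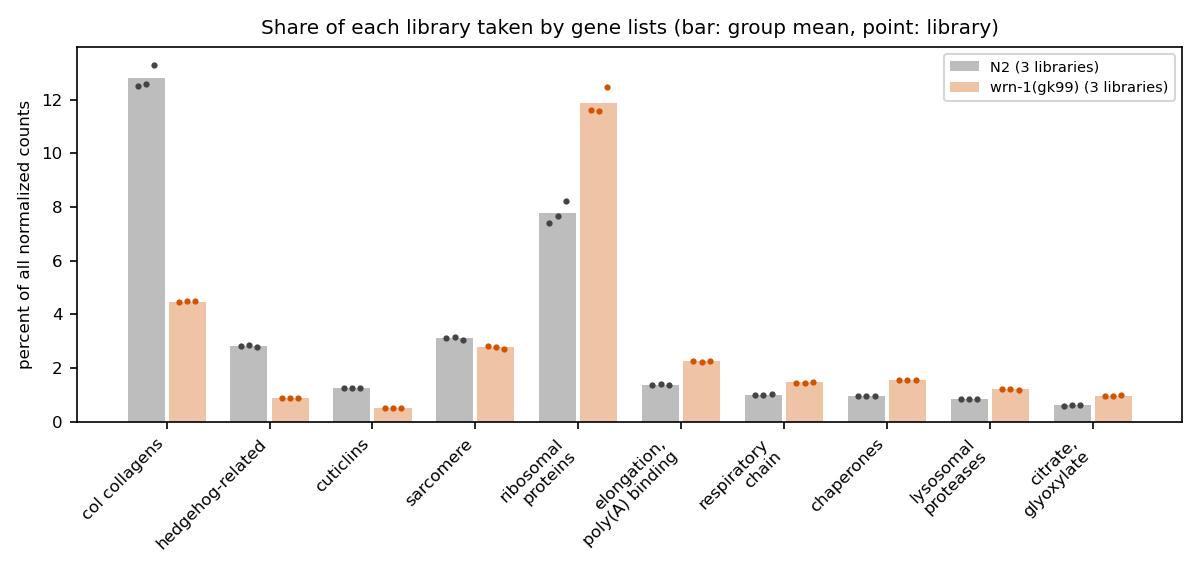
Percentage of all normalized counts of each library that 10 gene lists took, with bars at the group mean and points for the 3 libraries of N2 (grey) and of wrn-1(gk99) (orange). The col collagens took 12.5% to 13.3% in N2 and 4.45% to 4.49% in the mutant, and ribosomal proteins 7.40% to 8.22% and 11.6% to 12.5%.

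Mitochondrial genes rose as well. The matrix chaperone hsp-6 had 4194, 4294 and 4212 normalized counts in N2 and 11048, 10979.6 and 11341 in the mutant (log2 fold change 1.39, SE 0.04 and adjusted p = 3.32e-12 in limma), and its partner hsp-60 had 2063, 2306 and 2543 and 6495, 6304 and 7775 (1.57, SE 0.08 and adjusted p = 2.17e-09 in limma). Both are reporters of the mitochondrial unfolded protein response. Of 21 import and quality control genes, a list added after the values were seen, 18 rose at any size, 2 were called (6 with equal totals) and the median was 0.69. Among them the import channel genes timm-23 (0.89) and tomm-40 (0.87) and the protease gene spg-7 (0.89) rose by less than a ratio of 2. The respiratory chain and ATP synthase list had 36 of 48 genes up at any size and none called (median 0.30), with the ATP synthase subunits atp-1 and atp-2 at 0.54 and 0.66. The endoplasmic reticulum chaperone hsp-4 was at 0.82, while heat-inducible hsp-70 and hsp-16.1 were at -0.04 (adjusted p = 0.510, limma) and -0.36, and hsp-70 was at 0.13 with equal totals (these 3 were picked after their values were seen). The small heat shock gene hsp-12.2 rose by 1.88.

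Transcripts of central carbon metabolism rose in part. The citrate and glyoxylate list had 20 of 26 genes up at any size and 1 down (median 0.34). The called genes were the isocitrate dehydrogenase idh-1 (1.48), the cytosolic aconitase aco-1 (1.47) and icl-1 (1.04), the bifunctional glyoxylate cycle enzyme, and with equal totals 5 were called. In glycolysis and gluconeogenesis 2 of 22 were called higher, the aldolase aldo-2 (1.49) and the phosphoenolpyruvate carboxykinase pck-2 (1.03), and none lower. The glycogen genes gyg-1 (1.34) and gsy-1 (1.05) also rose. The alcohol dehydrogenase adh-1, also known as sodh-1, had 461, 431 and 504 normalized counts in N2 and 5038, 4899.5 and 5126 in the mutant (3.43). It overlaps sodh-2 on the opposite strand, which had group means under 10, and reads of this pair cannot be told apart. The aldehyde dehydrogenases alh-5, alh-9, alh-8 and alh-1 rose by 1.69, 1.51, 1.23 and 1.05. By contrast gpdh-2, an enzyme of glycerol synthesis, fell by 1.35 on the log2 scale (adjusted p = 8.71e-12, limma).

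Several peroxisomal acyl-CoA oxidases rose. Of 40 beta-oxidation genes 7 were called higher (17.5%) and 4 lower (10%), against 4.34% and 6.67% of all genes. The acyl-CoA oxidase acox-1.2 had 318, 369 and 369 normalized counts in N2 and 2585, 2575 and 2494 in the mutant, a log2 fold change of 2.86 (SE 0.06 and adjusted p = 5.55e-13 in limma). It lies between acox-1.1 (1.33) and acox-1.3 (1.77) on chromosome I, which were called higher too, as was acox-1.5 (1.59). These paralogs shorten ascaroside pheromones and fatty acids in peroxisomes, and their similarity makes the split of reads among them uncertain. In the opposite direction the carnitine palmitoyltransferase cpt-5 (-1.93), acox-1.6 (-1.15) and the acyl-CoA dehydrogenases acdh-1 (-1.12) and acdh-6 (-1.05) fell, of which 1 was called with equal totals.

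Fatty acid elongase transcripts were called in both directions, and those for phospholipids went up where they were called. Of 6 desaturases 1 was called higher and 0 lower, and of 10 elongases 2 and 2. At any size 7 elongases rose and 2 fell. The desaturase fat-3 (1.01) and the elongases elo-1 (1.03) and elo-2 (1.13) were called higher, and the elongases elo-9 (-1.85) and elo-4 (-1.82) lower. The ratios of fat-3 and elo-1 lay near 2, and the calls were lost for fat-3 without N2 replicate 3 (0.99) or wrn-1(gk99) replicate 2 (0.98) and for elo-1 without wrn-1(gk99) replicate 3 (1.00). Of 31 phospholipid genes 5 were called higher and none lower, namely ckb-2 (1.61), cept-1 (1.55), acl-1 (1.29) and the phosphoethanolamine methyltransferases pmt-1 (1.29) and pmt-2 (1.35), which make phosphocholine. In the sphingolipid list asah-1 (1.61), sptl-2 (1.43) and gba-1 (1.15) rose and no gene was called lower. Lipases leaned the other way, with 2 called higher (8.33%) and 5 lower (20.8%) of 24 (median -0.57), the falls led by lips-8 (-1.57) and lips-7 (-1.49). In sulfur amino acid metabolism cbs-1 (1.73), cysl-2 and cysl-3 (1.35) rose, and the folate enzyme dao-3 (-1.48) fell.

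Detoxification families were mixed. Cytochrome P450 genes had 6 members called higher and 8 lower of 64 tested, UDP-glucuronosyltransferases 9 and 3 of 63, and glutathione S-transferases 1 and 4 of 39. In that order the shares were 9.38% and 12.5%, 14.3% and 4.76%, and 2.56% and 10.3%, against 4.34% and 6.67% of all genes. The higher count of the last family was 2 without N2 replicate 1, N2 replicate 3 or wrn-1(gk99) replicate 2. The medians of the P450 and glutathione S-transferase lists, -0.10 and -0.15, turned positive with equal totals (0.06 and 0.02). The paralogs cyp-35A3 (2.81) and cyp-35A4 (2.61), inducible by foreign compounds, had the largest rises, and cyp-29A3 (-1.93) and cyp-13A6 (-1.93) the largest falls. The flavin monooxygenase fmo-2 had 21.5, 38.5 and 18.1 normalized counts in N2 and 192, 186 and 202 in the mutant (2.92, adjusted p = 1.04e-07, limma), and it missed the threshold in the fit over all 12 libraries (adjusted p = 0.0128, limma) but was called in that fit without N2 vitC replicate 3. Of the antioxidant genes gpx-3 was called higher (2.59), a call lost without wrn-1(gk99) replicate 3 (2.51) as its mean then fell under the minimum, and the mitochondrial superoxide dismutase sod-3 (-1.69) and gpx-5 (-1.39) were called lower. The ferritin ftn-1, an iron store, fell (-1.76). Of 26 tested stress reporters hsp-6, hsp-60 and the hypoxia reporter cysl-2 were called higher and sod-3 lower, and the lower count was 2 without N2 replicate 3 or wrn-1(gk99) replicate 3.

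The genes of the intracellular pathogen response fell. This programme, in which pals genes and ubiquitin ligase parts are switched on by microsporidia and viruses, was looked at as a list after the values of pals genes had been seen. Of 37 pals genes 30 were tested, 15 were called lower and 0 higher, and 25 fell at any size, with a median of -1.74. The pals-26 gene had 3761, 3725 and 3855 normalized counts in N2 and 679, 659.9 and 684 in the mutant (log2 fold change -2.49, SE 0.04 and adjusted p = 1.1e-13 in limma), and pals-39 had 4979.8, 4948 and 4674 and 1121, 1079 and 1108 (-2.14, SE 0.04 and adjusted p = 2.96e-13 in limma). The lowest N2 library was above the highest mutant library in both. The regulators pals-22 and pals-25, which repress and promote the programme, were at 0.00 and -0.36, with adjusted p-values of 0.987 and 0.0643 (limma), and the sign of pals-22 turned under some settings. In the wider list 21 of 49 were called lower, among them the ubiquitin ligase subunit skr-5 (-1.83), and the chitinase-like chil-22 (1.28) was called higher. The cullin cul-6 fell without being called (-0.85).

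F-box proteins, many of them adaptors of ubiquitin ligases, leaned lower, whereas MATH-domain genes were split. F-box genes had 3 members called higher and 22 lower of 175 tested. The adjoining genes fbxa-163, fbxa-164 and fbxa-165 on chromosome II were all called lower (-1.84, -1.72 and -1.85). MATH-domain genes math-28 (-1.98), math-21 (-1.54), math-24 (-1.32), math-22 (-1.32) and math-20 (-1.12) were called lower and bath-26 (1.45) higher, of 63 tested, with 2 higher without N2 replicate 2, N2 replicate 3 or wrn-1(gk99) replicate 1. Their median was 0.01 (-0.04 and -0.01 without wrn-1(gk99) replicates 2 and 3), with 32 above 0 and 7.94% called lower against 6.67% of all genes. The call of math-20 was lost with equal totals (-0.96).

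Antibacterial effectors differed gene by gene. C-type lectins had 21 members called higher (17.9%) and 7 lower (5.98%) of 117 tested (266 listed), with a median of 0.62. Over all genes the shares were 4.34% and 6.67%. With the largest rise and fall of called members, clec-4 had 150.5, 169.7 and 172 normalized counts in N2 and 1269.8, 1219 and 1283 in the mutant (2.93), and clec-228 had 1471, 1571 and 1611 and 185, 183 and 191 (-3.05). The lysozyme lys-8 had 3381, 3339 and 3494 in N2 and 152, 163 and 151 in the mutant (-4.45), while lys-7 (1.31), lys-1 (1.07) and the invertebrate-type ilys-5 (1.59) rose. Epidermal peptides had 4 members called higher (11.4%) and 6 lower (17.1%) of 35 tested, with a median of 0.53. Among them the fungus-induced fipr-1, fipr-2 and fipr-3 rose (2.11, 2.43 and 2.00). The caenacin cnc-9 (-2.41) and the peptides nlp-24 (-1.83), nlp-31 (-1.72) and nlp-34 (-1.72) fell. The list of other immune effectors leaned lower, with 9 called higher (10.8%) and 20 lower (24.1%) of 83 tested and a median of -0.36. At any size 23 of them rose and 40 fell. The immune genes irg-4 (2.00) and dod-24 (1.99) rose and thn-2 (-2.50) fell.

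Genes of the intestine rose in the main. Of 25 lysosomal proteases 8 were called higher and none lower, though 2 were lower without N2 replicate 1 and 1 without N2 replicate 2 or wrn-1(gk99) replicate 3. At any size 14 of these proteases rose and 8 fell, 2 of the falls reaching the ratio of 2 without the minimum mean. The gut cysteine protease cpr-1 had 1341, 1465 and 1645 normalized counts in N2 and 7797, 7709 and 8396 in the mutant (2.43, SE 0.06 and adjusted p = 3.67e-12 in limma), and cpr-5 (1.82), the aspartyl protease asp-3 (1.31) and the carboxypeptidase ctsa-2 (1.31) rose. All of the called rises in the attachment and filament list were intermediate filaments of the gut wall, ifc-1 (2.17), ifb-2 (1.84), ifd-1 (1.76), ifp-1 (1.41) and ifc-2 (1.34). The gut granule transporters haf-9 (1.29) and haf-4 (1.17) and the aquaporins aqp-1 (2.37) and aqp-4 (1.58) rose as well. The ABC transporter list had 5 called higher (9.80%) and 1 lower (1.96%) of 51 tested. The list of aquaporins, ammonium transporters and bestrophins went both ways, with 11 called higher (15.3%) and 9 lower (12.5%) of 72 and a median of 0.11. The intestine marker list summed to 49080.5 to 50149.9 in N2 and 93716 to 96642 in the mutant, with 9 of 13 above 0, none at 0, and the fate regulator elt-2 at -0.71. The list shares cpr-1 and asp-1 with the proteases and ifb-2 with the filaments, so its sum is in part a sum of the same genes, and its part in the changes of the gut genes was not tested.

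Most neuropeptide and touch receptor genes were lower. Of 87 tested neuropeptide genes 3 had a log2 fold change above 0, 14 were called lower and 0 higher, and 59 fell at any size, with a median of -0.60. With equal totals 14 were above 0 and 9 were called lower. The largest falls among called members were those of nlp-69 (-1.70), nlp-59 (-1.60), flp-20 (-1.42), nlp-82 (-1.38) and flp-34 (-1.31). Synaptic and peptide processing genes had a median of -0.49, with the proprotein convertase egl-3 at -0.45 and none of 26 called (1 lower without N2 replicate 1 or wrn-1(gk99) replicate 3). Of 16 mec genes 7 were called lower (2 with equal totals), among them the beta-tubulin mec-7, which had 3037, 3039 and 3059 normalized counts in N2 and 1278, 1252 and 1305 in the mutant (-1.25, SE 0.04 and adjusted p = 1.6e-11 in limma), the alpha-tubulin mec-12 (-1.02), the acetyltransferase mec-17 (-1.14) and the homeobox gene mec-3 (-1.17).

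Neuron markers moved with these lists. They summed to 25242 to 25693 normalized counts in N2 and 18157 to 18599.8 in the mutant, 0 of 12 were above 0, and none was at 0 (with equal totals 1 was above 0). The markers include 9 members of the synaptic list and none of the neuropeptide or mec lists. Their part in the neuropeptide and touch receptor changes was not tested. The chemoreceptor srw-85, with 1734, 1646 and 1819.8 in N2 and 52.5, 45.3 and 41.8 in the mutant, had the largest fall of all called genes (-5.19, SE 0.09 and adjusted p = 1.74e-13 in limma). Its adjoining genes C25F9.2 and C25F9.11 fell too (-1.50 and -0.76) and were not called.

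Some genes of the pharynx rose. The pharyngeal myosins myo-1 (1.73) and myo-2 (1.56), and the marginal cell gene marg-1 (1.68) were called higher, with myo-2 at 1745, 1829 and 1600.2 normalized counts in N2 and 5269, 5142 and 4844 in the mutant. Pharynx markers summed to 7589 to 7971 in N2 and 14567 to 15338 in the mutant, with 7 of 12 above 0 and none at 0. The markers include the myosins just named, and their part in these rises was not tested. The pharynx regulator pha-4 and the mucin-like phat-2 were at -0.48 and -0.92. In body wall muscle the myosin unc-54 was at -0.16 (adjusted p = 0.0535, limma) and at 0.00277 with equal totals, the paramyosin unc-15 was at -0.28, and the troponin T tnt-2 was called lower (-1.09) but not with equal totals. Of the potassium channels, the muscle channel twk-18 rose (1.45) with twk-33 (2.04), and 7 of 46 were called lower (4 with equal totals), led by twk-9 (-1.69) and twk-48 (-1.59).

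The largest rises included genes with little description. Y48E1B.8 on chromosome II had 63.1, 91.5 and 54.4 normalized counts in N2 and 1003, 1048 and 951 in the mutant (3.86, SE 0.15 and adjusted p = 1.06e-10 in limma). Its span overlaps clec-145 on the opposite strand, which fell (-0.82), and reads of the pair cannot be told apart. Y39B6A.1 had 1413, 1426 and 1457 and 11104, 11043 and 10752 (2.94, SE 0.04 and adjusted p = 2.36e-14 in limma), the highest mutant count of the 15 largest rises. The secreted scl-2 (3.29) rose while its neighbours on the chromosome scl-1 and scl-3 fell (-0.96 and -0.40). Peptides of the nspc family, picked out after their values were seen, had 12 genes tested of 20 listed, of which 12 rose, with log2 fold changes from 1.29 to 2.89 and 5 called. They are near copies of each other at low counts, with nspc-10 at 21.5, 19.9 and 21.3 in N2 and 139, 155 and 196 in the mutant. The acyltransferases oac-34 (3.08) and oac-20 (3.09), the last of which overlaps fbxa-99 on the opposite strand, rose and oac-38 (-2.54), oac-23 (-2.55) and oac-40 (-2.57) fell.

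Called genes were unevenly spread over the chromosomes and often adjoined one another. On chromosome V 184 genes were higher and 289 lower, 15.6% of those tested there, against 6.56% on chromosome I. Of the protein-coding genes called lower, 22.5% adjoined another gene called lower, and of those called higher 21.3% adjoined another called higher, while of 12189 tested genes that were not called 1134 adjoined a gene called lower and 731 a gene called higher. Runs of at least 3 adjoining genes called in 1 direction numbered 24, 16 of them lower. The longest, of 7 genes, was on chromosome V from C13A2.5 to F07G11.3, with log2 fold changes from -2.98 to -1.94. C13A2.5 itself had 2127, 2037 and 1790.0 normalized counts in N2 and 275, 262 and 218 in the mutant (-2.98). Other runs held the paralogs pals-37, pals-39 and pals-38, col-92 to col-94, clec-64 to clec-66 and mltn-6 to mltn-8, which are families that lie side by side. The adjoining pair ddn-1 and B0507.8, at -2.82 and -2.91, and the pair T28A11.20 and T28A11.4, at -3.14 and -2.95, were among the 15 largest falls.

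The strain difference was also read in the treated libraries, which share no sample with the comparison above. Of the 623 genes called higher, 550 were also higher in the mutant when both strains were on vitamin C, and 43 kept a ratio of at least 2. Of the 957 called lower, 847 were lower there, 81 of them by a ratio of at most 0.5. These values include the library labelled N2 vitC replicate 3, which resembled the mutant. Of the 1580 called genes, 1483 were nearer in it to the wrn-1(gk99) vitC libraries than to the other N2 vitC libraries, and 934 were nearer to the untreated mutant than to untreated N2, against 318 and 346 in N2 vitC replicates 1 and 2 and 939 to 986 in the wrn-1(gk99) vitC libraries. Without it 549 and 848 had the same direction and 241 and 163 the same ratio or more. The median log2 ratio of the called genes went from 1.42 untreated to 0.47 treated for the higher set (0.77 without that library) and from -1.39 to -0.37 for the lower set (-0.52 without it). These genes were chosen for their untreated difference, so their smaller treated ratios are given as a description.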

How the data were processed

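RNA of whole L4 larvae was sequenced in reads of 50 bases. Per the submitters' processing notes the reads were checked with FastQC, aligned to ce10 with TopHat and counted per gene with HTSeq, and the deposited values are counts divided by DESeq size factors, a linear normalized signal with no length correction. Versions, counting mode and strand setting are not given in the sources used here. Every nonzero value of each library was a whole multiple of 1 step within a tolerance of 0.01 reads (100% of values), so read counts could be recovered. The columns of the 6 untreated libraries were used for the comparison, the treated columns only for side by side values and for fits over 12 or 11 libraries.

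The log2 of the normalized count plus 1 was fitted with limma 3.58.1 (lmFit, eBayes with a trend) in R 4.3.3 and adjusted by Benjamini-Hochberg. Genes with a mean of at least 10 were tested, and the minimum mean for a call was 145 normalized counts in at least 1 strain. With 3 libraries a group, permutation of single values stops at a two-sided exact p of 0.1, so the moderated fit was used. On simulated data, over 14263 genes, all of 100 genes changed 3-fold and 100 changed 4-fold were recovered with 0 false calls. Both changes lie well beyond the ratio of 2 that a call needs, and recovery of changes near that ratio was not tested. The changed genes were drawn only from means above the minimum for a call. All genes were given the same dispersion, and replicate 3 was not set apart as it is in the data. The simulation thus checks that the code works and gives no error rate for the real libraries. The recovered reads were also tested with the tools edgeR 4.0.16 and DESeq2 1.42.0, and the fit was repeated with other pseudocounts, filters, scalings and thresholds, with a replicate block and with each library left out. Replicates 1 and 2 of each strain lay nearer to each other (chi-square per gene 1.70 in N2 and 1.36 in wrn-1(gk99)) than to replicate 3 (5.46 to 9.06), and all differed by more than counting noise. The p-values measure the spread between these libraries. Reads of sequencing are not independent molecules, and no molecular identifiers were used.

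The members and the 84 gene lists were chosen with earlier results of these data known, and 7 further lists after the values were seen. Of the 1580 called genes 539 (34.1%) belong to any of the 84 lists, so most called genes lie outside them. Genes were named by rule: the RecQ list, the 15 largest and 15 smallest ratios among called genes whose groups did not overlap, up to 5 called members at each end of a list, up to 3 of the highest mean in lists with fewer than 2 called, and genes adjoining wrn-1 and the extreme genes. Other names were chosen after their values were seen. Names, chromosomes, overlaps and gene order came from the WBcel235 annotation, in which 44115 of 45327 listed IDs were matched. Gene order and overlaps rest on the gene positions of that annotation, and no positions are printed.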

Additional observations from a re-analysis of the deposited data

How the results depend on the processing

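The counts of 623 genes called higher and 957 called lower in wrn-1(gk99) moved by over 1.5 times under 1 alternative, the removal of the minimum group mean, which gave 1095 and 1507. Leaving out each library in turn gave 621 to 628 higher and 956 to 978 lower. edgeR called 644 and 956 and DESeq2 625 and 969. With the replicate block 623 and 957 were called, the same genes as without it, in a fit where limma took the spread of a gene almost wholly from the trend over all genes. Same-numbered libraries of the strains correlated at 0.090, 0.031 and 0.171 in their deviations from the group means, the highest value for each N2 library. However, wrn-1(gk99) replicate 2 correlated more with N2 replicate 1 (0.069) than with its own number. These low values do not settle whether the replicate numbers pair the libraries. Of 3822 list counts under an alternative 115 moved by over 1.5 times. The signs that turned belonged to genes near 0, which were pals-22 with DESeq2 (-0.00304), with each library left out in turn pals-22 (-0.12 to 0.076) and rnr-2 (-0.031 to 0.034), and, with equal totals, hsp-70 (0.13) and unc-54 (0.00277). The cause was not tested. Depth limits genes of few reads: a mean of 10 rests on about that many reads in a library, and the fold changes of such genes are understated by the pseudocount of 1.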

Other observations

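Transthyretin-like proteins, small secreted proteins that nematodes hold in large numbers, had 7 members called higher (14.6%) and 9 lower (18.8%) of 48 tested. The largest rise and fall of called members were in ttr-21 (1.77) and ttr-44 (-1.82). Nuclear hormone receptors had 8 called higher and 3 lower of 211 (3.79% and 1.42%, against 4.34% and 6.67% of all genes), and 16 and 0 with equal totals. The largest rise of a called receptor was that of nhr-74 (1.66), and nhr-85, a receptor of the larval timing pathway, rose by 1.15. Acid phosphatases, of which pho-1 is an enzyme of the gut lumen, had 3 called higher (pho-4, pho-1 and pho-11) and 2 lower (pho-12 and pho-14) of 11. Claudin-like clc genes, a family picked out after its values were seen, had 8 called lower (5 with equal totals) and 0 higher of 21, with the largest called fall in clc-11 (-2.15).

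Other gene groups are set beside the shares over all genes, of which 4.34% were called higher and 6.67% lower. Of 1630 chemoreceptors 114 reached the level for testing, 44 of these fell and 11 rose, with a median of -0.69. Only 0.877% of them were called higher and 3.51% lower. Among 16 tubulins, tbb-6 (-1.34) was called lower beside the touch neuron tubulins mec-7 and mec-12, 18.8% of the list, and at any size 10 fell and 4 rose. Of the histone list, 37 tested, the linker histone hil-7 (-1.92) was called lower (2.70%). Homeobox genes had 1 called higher (1.64%) and 3 lower (4.92%) of 61, with 0 lower with equal totals.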
